A study of Mus musculus with 4 samples.

Results

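In mouse tibialis anterior, the muscle along the front of the shin, 10 genes for enzymes that remodel the extracellular matrix, or for the inhibitors of those enzymes, were followed: the matrix metalloproteinases Mmp2, Mmp9, Mmp13 and Mmp14, their tissue inhibitors Timp1, Timp2, Timp3 and Timp4, the related secreted protease Adamts1, and the lysyl oxidase Lox. They are 10 of the 32868 gene names with values in the deposited libraries, each with a single row. The set was put together by family and selected on the difference in RPKM between the genotypes compared here, Mmp9 and Mmp13 being noted for their large rise. The differences of these 10 genes are therefore given as descriptions, without a test. The genes lie on 10 different chromosomes in GRCm38: 8 (Mmp2), 2 (Mmp9), 9 (Mmp13), 14 (Mmp14), X (Timp1), 11 (Timp2), 10 (Timp3), 6 (Timp4), 16 (Adamts1) and 18 (Lox).

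Muscle was taken at postnatal day 21 from C57BL/6 mice of 2 genotypes, with 2 libraries of total RNA each. The Nf1-KO group is Nf1flox/flox/Myf5+ and the Het group is Nf1flox/+/Myf5+, so the Het controls also carry a floxed Nf1 allele and Myf5+. Nf1 encodes neurofibromin, which switches off the GTPase Ras, and Myf5 is a transcription factor of muscle precursors. The labels name no recombinase beyond these genotypes and do not say whether the libraries of a group came from separate animals, so p-values measure only the spread between these libraries, which may be technical. Whole muscle also holds vessels, nerve, connective tissue and leukocytes, and in such bulk RNA a change in the number of cells of a type and a change in RNA per cell cannot be told apart.

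Matrix metalloproteinases are zinc enzymes that are made as inactive precursors and cleave collagens and other matrix proteins once activated. Timp proteins bind the active enzymes and block them, and at the cell surface Timp2 also takes part in the activation of Mmp2 by Mmp14. Lysyl oxidase works in the other direction, oxidising lysines in collagen and elastin so that the fibres become cross-linked. In skeletal muscle this matrix surrounds every fibre and is remodelled during growth, repair and fibrosis.

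Promoter windows from RefSeq (build GRCm38.p6) were read for 7 of the 10 genes. Mmp2, Mmp9 and Lox were not among them. The stretches shown are the 250 bases before the annotated transcript start, 5′ to 3′ on the gene's own strand, for Mmp13 and Timp1, which were far higher in Nf1-KO, and for Adamts1, which was lower. Capitals mark matches, on either strand, to the AP-1 motif TGANTCA, the Runx motif TGTGGT, the Ets motif AGGAAG, the Sp1 motif GGGCGG and the TATA motif TATAAA. The windows are chr9:7272264-7272513 (plus strand) for Mmp13, chrX:20869916-20870165 (plus strand) for Timp1 and chr16:85803114-85803363 (minus strand) for Adamts1.
Mmp13: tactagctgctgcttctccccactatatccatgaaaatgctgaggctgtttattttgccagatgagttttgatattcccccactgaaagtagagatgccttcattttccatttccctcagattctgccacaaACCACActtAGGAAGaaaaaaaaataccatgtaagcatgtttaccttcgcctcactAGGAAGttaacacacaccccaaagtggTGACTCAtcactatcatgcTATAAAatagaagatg
Timp1: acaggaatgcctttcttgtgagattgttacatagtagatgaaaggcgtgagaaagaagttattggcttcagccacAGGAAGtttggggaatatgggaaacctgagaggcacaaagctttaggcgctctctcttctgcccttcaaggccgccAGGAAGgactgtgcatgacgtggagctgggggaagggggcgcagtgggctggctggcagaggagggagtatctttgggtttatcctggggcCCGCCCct
Adamts1: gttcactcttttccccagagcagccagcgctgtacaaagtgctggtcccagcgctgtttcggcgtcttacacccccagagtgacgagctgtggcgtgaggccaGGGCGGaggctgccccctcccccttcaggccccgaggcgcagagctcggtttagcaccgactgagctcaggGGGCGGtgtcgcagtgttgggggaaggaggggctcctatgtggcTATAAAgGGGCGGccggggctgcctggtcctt

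Mmp13 was the only gene of the 7 read whose window held an AP-1 match, 35 to 29 bases before the start. Of all 32851 windows of the same length, 6.75% held this motif. The Mmp13 window also held a Runx match and a pair of Ets matches. Runx matches stood in 2 of the 7 windows, those of Mmp13 and Mmp14, against 14% of all windows. Ets matches stood in 5 of the 7 (29.5% of all windows), Sp1 matches in 5 (32.7%) and TATA matches in 2 (12.4%), the latter in Mmp13 and Adamts1. The Sp1 matches in Adamts1 numbered 3, and its window had a GC content of 65.6%, against 40.4% in Mmp13. In GENCODE M21 the windows of Timp2 and Timp3 hold exon sequence of the gene itself, and the bases after the Mmp14 window were not found in any Mmp14 transcript, so these 3 windows may not end at the start of the transcript. A match describes letters in the window and shows neither binding nor a cause.

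**Figure D1:**
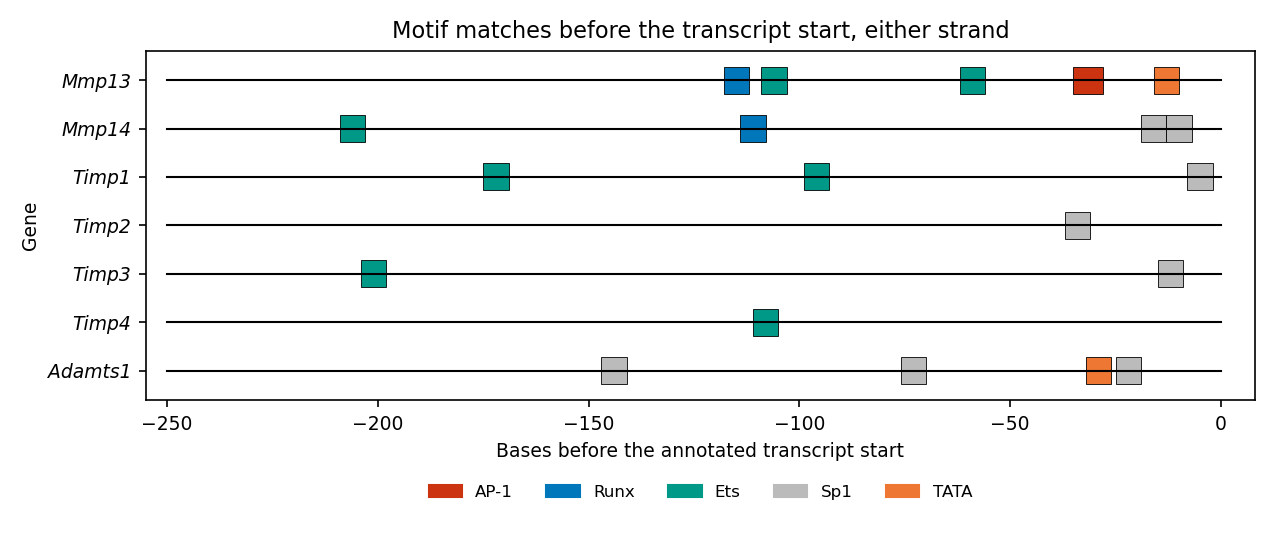
Positions of motif matches in the 250 bases before the annotated start of 7 genes, with distance from the start in bases on the x axis and a coloured box per match on either strand. The AP-1 match of Mmp13 lies 35 to 29 bases before the start, and none of the other windows holds this motif.

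Levels are given as RPKM, reads scaled to gene length and sequencing depth, as deposited. With the mean normalized counts of the authors' deposited table as the yardstick, 1 RPKM stood for between 41 normalized reads (Timp1) and 361 (Timp3) per library. Fold differences are ratios of mean RPKM. Log2 differences are of log2(RPKM + 1) after scaling between libraries, Nf1-KO minus Het, with the standard error from limma; adding 1 understates the difference of genes at low RPKM. Replicates lay close together: above 5 RPKM, the standard deviation of a typical gene was 2% of its mean in Het and 1.95% in Nf1-KO. Nf1 itself was at 1.09 and 1.01 RPKM in Het and 0.89 and 0.85 RPKM in Nf1-KO, a log2 fold change of -0.18 (limma adjusted p 0.036). Myofibre genes led all 4 libraries, with Acta1, the skeletal muscle actin, between 12305 and 15930 RPKM.

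Of the 4 metalloproteinases, Mmp13 and Mmp9 were close to absent in Het muscle and clearly present in Nf1-KO muscle. Mmp13, or collagenase-3, cleaves fibrillar collagen and is best known from bone and cartilage. It stood at 0.01 and 0.06 RPKM in the Het libraries and at 8.48 and 8.75 RPKM in the Nf1-KO libraries. The Het values amount to about 9 normalized reads over both libraries, against about 2107 in Nf1-KO. The ratio of means was 246, with a range of 215 to 287 from the rounding of the deposited values alone and a 95% exact binomial interval of 123 to 513 from counting error alone. On the log2(RPKM + 1) scale the difference was 3.17 with a standard error of 0.056, and only 3 of 10690 tested genes had a larger rise. With a pseudocount of 0.1 in place of 1 it was 5.97, and the authors' deposited table gives a log2 fold change of 7.67.

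Mmp9, a gelatinase that degrades denatured collagen and basement membrane and is abundant in neutrophils, macrophages and osteoclasts, held 0.13 and 0.06 RPKM in Het and 3.41 and 3.8 RPKM in Nf1-KO. The groups were far apart, by a ratio of 37.9, with a counting interval of 25.8 to 56.7 (95%, exact binomial, on about 28 against 1049 normalized reads). Its log2 difference was 2.03 with a standard error of 0.069, and 12 tested genes had a larger rise. With a pseudocount of 0.1 it was 4.19, and the authors' deposited table gives 5.20.

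Mmp2 and Mmp14 were present in both genotypes and moderately higher in Nf1-KO. Mmp14, a membrane-anchored collagenase that activates Mmp2, was at 3.04 and 3.26 RPKM in Het and at 5.66 and 5.26 RPKM in Nf1-KO, a ratio of 1.73 and a log2 difference of 0.55 (standard error 0.056). Mmp2, the gelatinase made mainly by fibroblasts, was at 6.28 and 6.21 RPKM in Het and at 8.52 and 8.07 RPKM in Nf1-KO. Its ratio was 1.33 and its log2 difference 0.27 (standard error 0.043). For both genes each Nf1-KO library lay above each Het library.

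**Figure D2:**
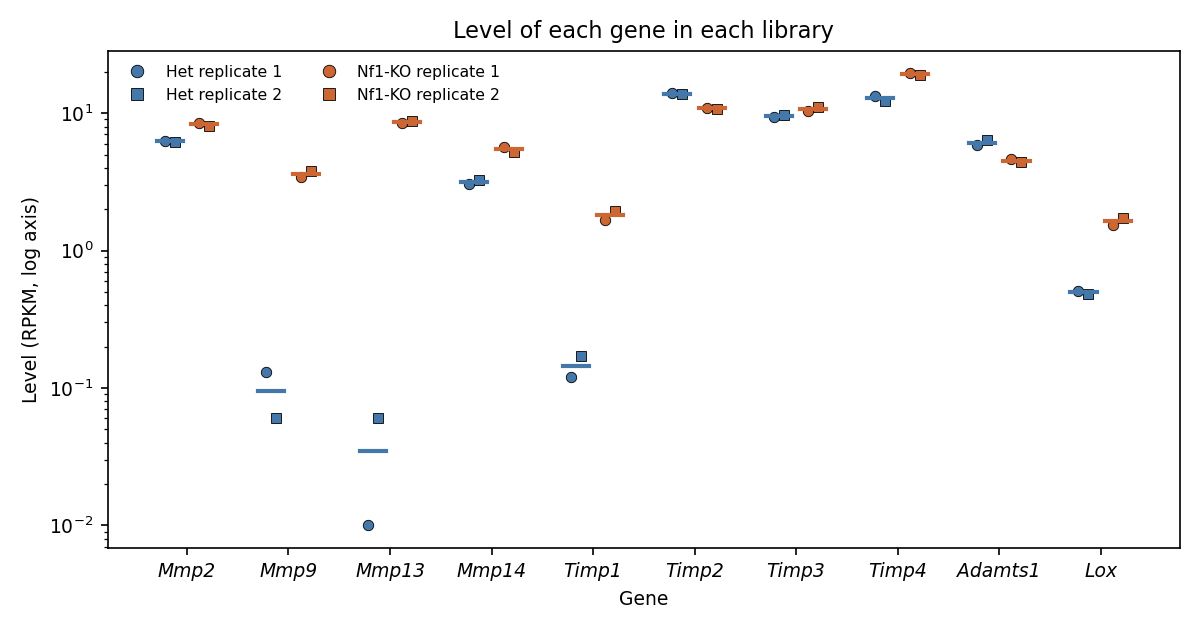
Level of each of the 10 genes in each of the 4 libraries, in RPKM on a log axis; blue marks are Het, orange marks Nf1-KO, and short lines are group means (n = 2). Mmp13 moves from 0.01 and 0.06 RPKM to 8.48 and 8.75 RPKM, while Timp3 lies between 9.38 and 11.06 RPKM in all libraries.

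The inhibitors did not move together. Timp1, the inducible inhibitor that rises in injured and inflamed tissue, was at 0.12 and 0.17 RPKM in Het and at 1.67 and 1.93 RPKM in Nf1-KO. It was 12.4 times as high in Nf1-KO, with a 95% exact binomial counting interval of 6.85 to 24.4 on about 12 against 148 normalized reads. Its log2 difference was 1.25 with a standard error of 0.069, and 2.88 with a pseudocount of 0.1. Timp1 stayed the least abundant inhibitor in both genotypes.

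Timp4, an inhibitor with high expression in heart and muscle, was at 13.42 and 12.22 RPKM in Het and at 19.51 and 18.86 RPKM in Nf1-KO. With a ratio of 1.5 and a log2 difference of 0.45 (standard error 0.047), it took the first place among the 10 genes in Nf1-KO. Timp2, which held that place in Het, was lower in Nf1-KO. Its levels were 14.01 and 13.79 RPKM in Het against 10.97 and 10.76 RPKM, and its log2 difference was -0.43 (standard error 0.033). Het was 1.28 times as high.

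Timp3, an inhibitor that binds to the matrix itself, changed least. It stood at 9.38 and 9.7 RPKM in Het and at 10.41 and 11.06 RPKM in Nf1-KO, a ratio of 1.13. Its log2 difference of 0.06 had a standard error of 0.044, and became 0.15 in values that were not scaled between libraries. As deposited, its 2 groups did not overlap.

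Each of Timp1, Timp3 and Timp4 lies inside a synapsin gene on the opposite strand (Syn1, Syn3 and Syn2) in the GENCODE M21 annotation, and exons of Timp3 and Timp4 overlap those of Syn3 and Syn2. Syn1 was at 0.02 to 0.04 RPKM and Syn3 at 0.06 to 0.1 RPKM in all libraries. Syn2 was at 0.21 and 0.15 RPKM in Het and at 0.87 and 0.77 RPKM in Nf1-KO. Whether the counting used strand is not given in the sources used here, so reads of Timp4 and Syn2 from the shared sequence cannot be told apart.

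Summed over the 4 genes, Mmp transcripts were 9.46 and 9.59 RPKM in Het and 26.1 and 25.9 RPKM in Nf1-KO. Summed Timp transcripts were 36.9 and 35.9 RPKM in Het and 42.6 RPKM in each Nf1-KO library. The ratio of summed Mmp to summed Timp was 0.262 ± 0.0079 (SD, n = 2) in Het and 0.61 ± 0.0037 (SD, n = 2) in Nf1-KO. Per length, transcripts of these 4 inhibitors were more abundant than those of the 4 metalloproteinases in both genotypes.

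These sums cover only the selected genes. With the other 19 Mmp genes included, which hold Mmp15, the sum of 23 genes was 19.9 and 20.1 RPKM in Het and 35.3 and 34.7 RPKM in Nf1-KO, and Nf1-KO was 1.75 times as high rather than 2.73 times. The ratio to summed Timp was then 0.551 ± 0.015 (SD, n = 2) in Het and 0.822 ± 0.012 (SD, n = 2) in Nf1-KO, or 1.49 times as high rather than 2.33 times.

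The make-up of the sum over the 4 Mmp genes differed between the genotypes. Mmp2 and Mmp14 supplied 66.4% and 32.1% of summed Mmp RPKM in Het replicate 1 and 64.8% and 34% in Het replicate 2. In the Nf1-KO libraries Mmp13 supplied 32.5% and 33.8%, level with Mmp2 at 32.7% and 31.2%, and Mmp9 supplied 13.1% and 14.7%. Among the inhibitors, Timp2 went from 37.9% and 38.4% of the summed Timp level in Het to 25.8% and 25.3% in Nf1-KO, and Timp4 from 36.3% and 34.1% to 45.8% and 44.3%. Timp1 made up 3.92% and 4.53% of the summed Timp level in Nf1-KO.

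**Figure D3:**
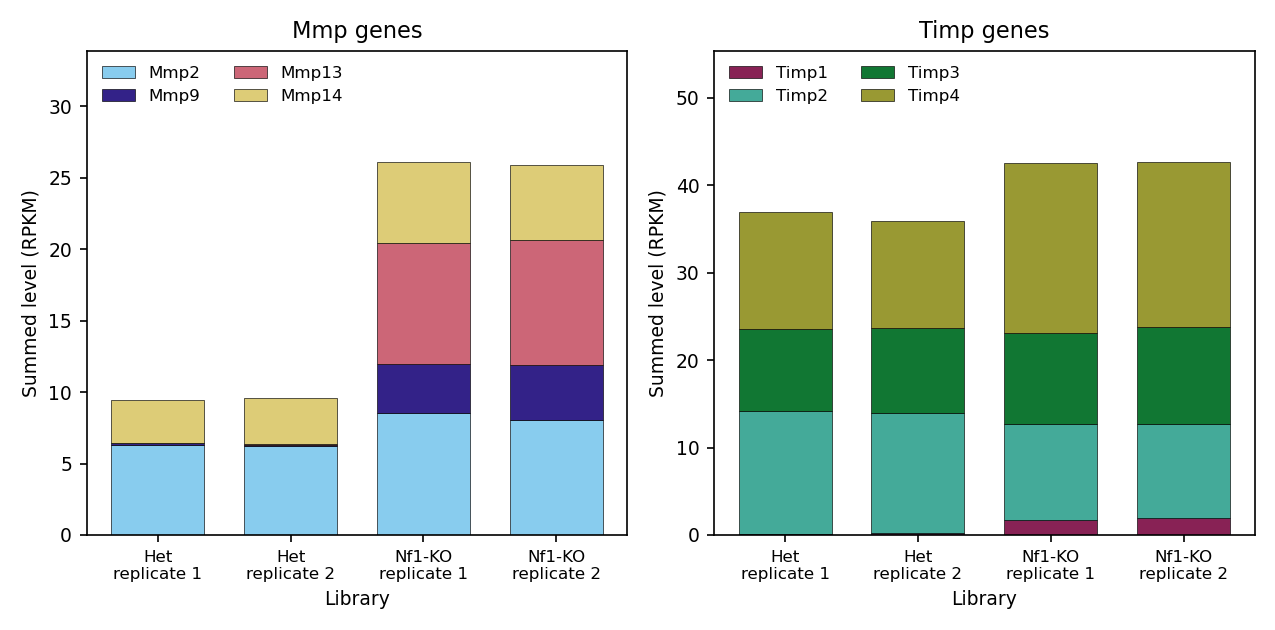
Summed level in RPKM of the 4 Mmp genes (left) and the 4 Timp genes (right) in each library, as stacked bars from 0 with a colour per gene. Mmp13 and Mmp9 account for most of the gap between 9.59 and 25.9 RPKM in the second replicates, while the Timp bars reach 35.9 and 42.6 RPKM.

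Adamts1, a secreted protease that cleaves proteoglycans such as versican and aggrecan, was lower in Nf1-KO. It was at 5.88 and 6.34 RPKM in Het and at 4.61 and 4.41 RPKM in Nf1-KO, so Het was 1.35 times as high. The log2 difference was -0.46 with a standard error of 0.053.

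Lox, the lysyl oxidase, was at 0.51 and 0.48 RPKM in Het and at 1.53 and 1.73 RPKM in Nf1-KO. The ratio was 3.29 and the log2 difference 0.76 with a standard error of 0.063; with a pseudocount of 0.1 it was 1.44. In Nf1-KO it did not differ in level from Timp1 beyond the spread of the libraries, and these were the lowest of the 10 genes there. An exon of Lox overlaps AC161119.1 on the opposite strand.

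In Het the order of levels was Timp2, Timp4, Timp3, Mmp2, Adamts1, Mmp14, Lox, Timp1, Mmp9 and Mmp13. The ranges of neighbours overlapped for Mmp2 and Adamts1, for Timp1 and Mmp9, and for Mmp9 and Mmp13. In Nf1-KO, Mmp13 moved from the last place to the fourth, where its range overlapped that of Mmp2. The range of Timp2 overlapped that of Timp3.

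In the values as deposited, both Nf1-KO libraries lay above both Het libraries for 8 of the 10 genes and below them for the other 2, so no gene of the set overlapped between groups. Of all tested genes 49.8% lay above, 27.4% below and 77.3% in either way. In the fit over all genes, 7 of the 10 genes were called higher and 2 lower at a limma adjusted p under 0.05 (Timp2 and Adamts1), and 1 was not called (Timp3). Of all 10690 tested genes 50.6% were called, 23.8% as higher and 26.7% as lower, and the median log2 fold change was -0.01. The genes were chosen with this contrast known, so nothing is read from these counts. All 10 entered the test, but 3 of them (Mmp9, Mmp13 and Timp1) passed the filter of 0.5 RPKM in 2 libraries through the Nf1-KO libraries alone.

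Related genes outside the set were taken from lists of the same families and pathways and tested in the same fit. Of 136 listed genes, 76 were tested, and 52 had a limma adjusted p under 0.05, against 50.6% of all tested genes. Of the 76, 4 passed the filter through the Nf1-KO libraries alone (Mmp23, Mmp28, Lcn2 and P3h2) and 1 through the Het libraries alone (Adamts9), so the filter favours the direction of their difference. All of these but P3h2 are among the 52, and their values are given as descriptions, without a p. Exons of 31 of the 76 overlap another annotated gene. None of the 52 changed direction under any alternative setting, and 31 kept their call in each alternative that tested them.

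Among the other metalloproteinases, 4 of 19 could be tested, of which 2 were higher and 1 lower, and their median on the log2 scale was 0.12. Mmp15, a membrane-anchored relative of Mmp14, was the most abundant Mmp gene in Het. Its mean went from 8.5 ± 0.021 RPKM in Het to 5.77 ± 0.18 RPKM in Nf1-KO (SD, n = 2), and the log2 fold change of -0.58 (SE 0.041) had a limma adjusted p of 8.1e-05. The 2 higher genes, Mmp28 and Mmp23, passed the filter through the Nf1-KO libraries alone. Mmp28 was at 0.48 and 0.43 RPKM in Het and 1.15 and 1.17 RPKM in Nf1-KO, and Mmp23 at 0.42 and 0.38 RPKM in Het and 0.76 and 0.7 RPKM in Nf1-KO. Mmp11 did not pass (log2 fold change -0.03, limma adjusted p 0.82).

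The remaining metalloproteinases were too low to test. Mmp8, the collagenase of neutrophils, held at most 0.05 RPKM. Mmp12, a metalloproteinase of macrophages, held 0.02 and 0.01 RPKM in Het and 0.07 and 0.08 RPKM in Nf1-KO. Mmp3, or stromelysin, which activates other Mmp precursors, held 0.12 and 0.15 RPKM in Het and 0.05 and 0.04 RPKM in Nf1-KO. Of the 19, 8 were listed at 0 in all 4 libraries, among them Mmp1a and Mmp10. Such a 0 is only a listed value, since the macrophage gene Adgre1 is also listed at 0 under its current and its older symbol while other macrophage genes are present.

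Adamts and Adam genes moved both ways. Of 18 other Adamts genes 5 were tested, with 2 higher, 2 lower and a median of -0.02. Adamts5, which like Adamts1 cleaves versican and aggrecan, went from 1.69 ± 0.064 RPKM in Het to 1.17 ± 0.035 RPKM in Nf1-KO (SD, n = 2; log2 fold change -0.38, limma adjusted p 0.002). Adamts9, a further versican-cleaving member that passed the filter through the Het libraries alone, was at 0.69 and 0.68 RPKM in Het and at 0.38 and 0.4 RPKM in Nf1-KO, and its exons overlap antisense transcripts. Adamts2, which trims procollagen, rose by 0.21 (limma adjusted p 0.025) and Adamts10 by 0.26 (0.048), but these calls were lost under 5 and 6 of the 13 alternatives that tested them. Adamts8 did not pass (log2 fold change -0.02, limma adjusted p 0.76).

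Of 7 genes of Adamts-like proteins, which lack the protease part, 3 were tested. Adamtsl4, which binds to fibrillin microfibrils, rose from 4.03 ± 0.21 to 7.35 ± 0.34 RPKM (log2 fold change 0.64, limma adjusted p 1.4e-04). Adamtsl5 rose by 0.14 and Papln fell by 0.23 on the log2 scale, calls that 3 of 14 and 5 of 13 alternatives did not keep. Among 10 genes of the Adam family, which includes membrane proteases that shed cell-surface proteins, 5 were tested. Adam15 rose from 2.63 ± 0.15 to 4.44 ± 0.21 RPKM (log2 fold change 0.50, limma adjusted p 6.5e-04), while Adam10, Adam9 and Adam17 were lower by log2 fold changes of -0.27, -0.23 and -0.21. The call of Adam17 was lost under 3 of 14 alternatives.

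**Figure D4:**
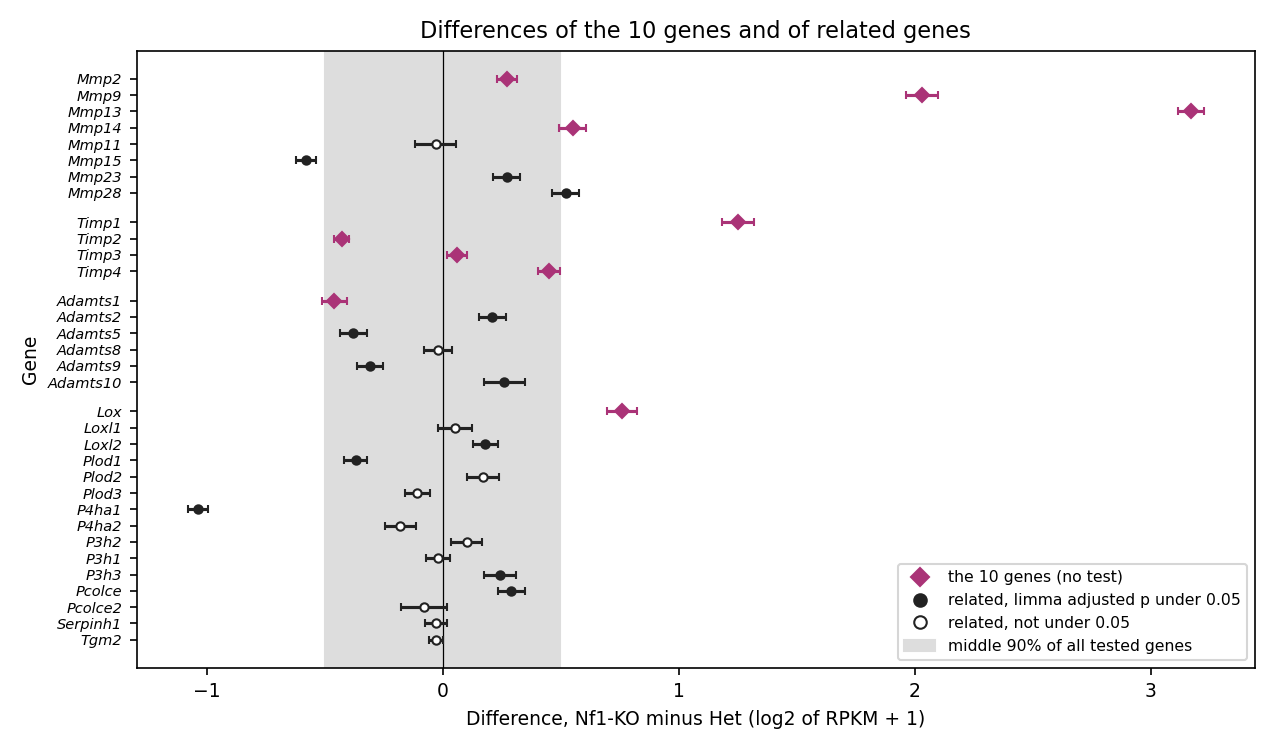
Log2 differences of RPKM + 1, Nf1-KO minus Het, with standard errors from limma; diamonds are the 10 genes, filled circles are related genes with a limma adjusted p under 0.05 (Mmp23, Mmp28 and Adamts9 passed the filter through 1 genotype alone), open circles those without, and the grey band spans the middle 90% of all tested genes (-0.50 to 0.50). Mmp13 at 3.17, Mmp9 at 2.03, Timp1 at 1.25, Lox at 0.76 and Mmp14 at 0.55 lie above the band. Of the related genes, Mmp28 at 0.52 also lies above it, and P4ha1 at -1.04 and Mmp15 at -0.58 lie below it.

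Lox was set beside its family and the enzymes that prepare collagen for cross-linking. Of 20 such genes 14 were tested, 3 were higher and 2 lower, and the median log2 fold change was -0.03. Loxl1, the family member tied to elastin and more abundant than Lox, did not pass (2.85 ± 0.32 and 3.21 ± 0.18 RPKM, limma adjusted p 0.62). Loxl2 rose by 0.18 on the log2 scale (limma adjusted p 0.028), a call lost under 5 of 14 alternatives. Loxl3 and Loxl4 were too low to test, at 0.09 to 0.26 RPKM.

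The enzymes and helpers that act on collagen before Lox moved both ways. P4ha1, the catalytic subunit of prolyl 4-hydroxylase, went from 8.82 ± 0.16 RPKM in Het to 4.11 ± 0.092 RPKM in Nf1-KO (SD, n = 2; log2 fold change -1.04, SE 0.042, limma adjusted p 7.6e-06). The lysyl hydroxylase Plod1 fell by 0.37 (limma adjusted p 0.0011). Pcolce, which enhances the trimming of procollagen, rose by 0.29 (0.0062), and P3h3, a prolyl 3-hydroxylase family member, by 0.24 (0.027), with calls lost under 1 of 14 and 4 of 13 alternatives. Serpinh1, the collagen chaperone, and transglutaminase Tgm2 did not pass, with log2 fold changes of -0.03 each.

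Genes that control proteases around the cell were tested in 14 of 21 cases, with 7 higher, 3 lower and a median of 0.13 on the log2 scale. Thbs2, a matricellular protein that takes Mmp2 to the scavenger receptor Lrp1, rose from 0.49 ± 0.071 RPKM in Het to 2.04 ± 0.0071 RPKM in Nf1-KO (SD, n = 2; log2 fold change 0.98, limma adjusted p 4.5e-05). Lcn2, a lipocalin of neutrophils that forms a complex with Mmp9, was at 0.22 RPKM in each Het library and at 0.65 and 0.78 RPKM in Nf1-KO, and passed the filter through the latter alone. Thbs1, a relative of Thbs2, rose by 0.24 on the log2 scale (limma adjusted p 0.014), a call lost under 3 of 13 alternatives.

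Bsg (basigin), a surface protein that induces Mmp genes in neighbouring cells, went from 226 ± 7.5 RPKM in Het to 160 ± 0.23 RPKM in Nf1-KO (SD, n = 2; log2 fold change -0.60, limma adjusted p 7.4e-06). Cav1, the caveolae protein, and Serpine2, a protease inhibitor, were also lower (log2 fold changes -0.36 and -0.22). The urokinase gene Plau did not pass (log2 fold change 0.01, limma adjusted p 0.89), nor did Pcsk6 (0.01, 0.93). Reck, a membrane-anchored inhibitor of several metalloproteinases, was too low to test, at 0.33 and 0.3 RPKM in Het and 0.45 and 0.53 RPKM in Nf1-KO.

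Substrates of these enzymes moved both ways. Of 18 listed genes 16 were tested, 8 higher and 5 lower, and the median was 0.06 on the log2 scale. The higher genes with the largest changes were the fibrillar collagens Col1a1 (1.56), Col1a2 (1.05) and Col5a2 (0.43, a call lost under 1 of 14 alternatives) and elastin, Eln (0.69). The lower ones with the largest changes were the basement membrane genes Col4a1 (-0.85), Col4a2 (-0.67), Hspg2 (-0.55) and Nid2 (-0.40), and the exons of Col4a1 and Col4a2 overlap. Lama2, also of the basement membrane, Col6a1 and Fbn1 did not pass (log2 fold changes 0.02, -0.08 and -0.01). Vcan and Acan, the proteoglycans that Adamts1 cleaves, were too low to test, at no more than 0.16 RPKM.

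Transcription factors and cytokines known to drive Mmp genes were tested in 15 of 23 cases, with 7 higher, 3 lower and a median of 0.02 on the log2 scale. Among AP-1 subunits, whose motif was marked in the Mmp13 window, Junb rose from 2.37 ± 0.11 to 5.05 ± 0.35 RPKM (SD, n = 2; log2 fold change 0.76, limma adjusted p 1.3e-04) and Fosl2 from 1.51 ± 0.014 to 3.17 ± 0.064 RPKM (0.66, 1.2e-04). Jun fell from 27.7 ± 0.85 to 19.8 ± 0.3 RPKM (log2 fold change -0.57, limma adjusted p 4e-05) and Fos from 2.37 ± 0.15 to 1.62 ± 0.12 RPKM (-0.43, 0.002). Exons of Junb overlap those of Prdx2, and exons of Jun those of Junos, on the opposite strand. Tgfb2 fell by 0.59 and Tgfb3 rose by 0.27 on the log2 scale, and Ets2 and Rela did not pass. Runx2, a driver of Mmp13 in bone, was at 0.04 and 0.07 RPKM in Het and 0.08 and 0.16 RPKM in Nf1-KO, too low to test. Il1b, Il6 and Tnf, cytokines that induce Mmp9, held at most 0.02 RPKM in any library.

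Markers of bone-forming and bone-resorbing cells moved with Mmp13 and Mmp9. By distance between centred log2 profiles over the 4 libraries, the gene most like Mmp13 was Ibsp, bone sialoprotein. Ibsp was at 0.01 and 0.02 RPKM in Het and at 8.65 and 9.07 RPKM in Nf1-KO, nearly the levels of Mmp13 itself, and its log2 difference was 3.23. The next genes were Sln, the calcium pump regulator sarcolipin, then Spp1, osteopontin, and then Mettl21e and Acp5. The genes most like Mmp9 were Ldhb, Fkbp5, Serpina3n, Acot1 and Nnt, which include a lactate dehydrogenase subunit, a glucocorticoid-responsive chaperone partner and a mitochondrial transhydrogenase. Their log2 fold changes were 1.92 to 2.16, but all of them except Serpina3n were above 1 RPKM in Het, unlike Mmp9. With 4 libraries this likeness reflects little beyond the size of the difference.

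Of the 11 bone markers 3 entered the test, of which Ibsp and Bglap passed the filter through the Nf1-KO libraries alone, so that only Alpl was free to move either way. The summed level of the list was 5 and 5.18 RPKM in Het and 16.2 and 16.8 RPKM in Nf1-KO. Ibsp made up most of that gap, and Alpl rose by 0.21 on the log2 scale (limma adjusted p 0.0064). Bglap, osteocalcin, was at 0 and 0.15 RPKM in Het and at 0.62 and 0.66 RPKM in Nf1-KO, while Sp7 and Dmp1 held at most 0.16 RPKM, Sost at most 0.07 RPKM, and Mepe was listed at 0. Of the 8 osteoclast markers 2 entered the test, Acp5 through the Nf1-KO libraries alone. Acp5, tartrate-resistant acid phosphatase, was at 0.22 and 0.2 RPKM in Het and at 6.51 and 5.33 RPKM in Nf1-KO, and Ctsk, cathepsin K, rose by 2.38 on the log2 scale (limma adjusted p 8.3e-07). The summed osteoclast level was 1.47 and 1.5 RPKM in Het against 17.1 and 16.3 RPKM, with Atp6v0d2 at 0.45 RPKM in each Nf1-KO library, Calcr at 0.15 RPKM or less and Dcstamp listed at 0. The part of such cells in the Mmp13 and Mmp9 levels was not tested.

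Macrophage markers were also higher. Of 11 macrophage markers 8 were tested, 6 were higher and none was lower, and the summed level was 17.7 and 17.2 RPKM in Het and 40.3 and 40.7 RPKM in Nf1-KO. The largest share in Nf1-KO was that of Lyz2, lysozyme, which rose from 7.42 ± 0.064 to 24.5 ± 0.19 RPKM (SD, n = 2; limma adjusted p 6.6e-07), while Csf1r rose by 0.52, Cd163 and Mrc1 did not pass (limma adjusted p 0.92 and 1) and Adgre1 was listed at 0. Of 11 neutrophil markers 2 entered the test, S100a8 and S100a9, both through the Nf1-KO libraries alone. S100a8 was at 0.21 and 0 RPKM in Het and 0.92 and 1.25 RPKM in Nf1-KO, and S100a9 at 0 and 0.03 RPKM in Het and 0.65 and 0.82 RPKM in Nf1-KO. Summed neutrophil markers were 0.26 and 0.09 RPKM in Het and 2.1 and 2.74 RPKM in Nf1-KO, with Ly6g listed at 0 and Mpo and Elane at 0.03 RPKM or less. The part of leukocytes in the Mmp9 and Timp1 levels was not tested.

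Markers of the other cell types ranged from little difference to sums as far apart as those of the macrophage list. Of the 11 markers of cartilage, where Mmp13 is also made, 2 were tested, of which Col9a1 was lower (0.96 and 0.93 RPKM in Het, 0.37 and 0.54 RPKM in Nf1-KO; limma adjusted p 0.0024) and Sox9 did not pass. Both Nf1-KO libraries were above both Het libraries for Acan (0.01 and 0 against 0.09 and 0.13 RPKM) and Hapln1 (0 and 0.01 against 0.06 and 0.08 RPKM), which were too low to test. The cartilage list summed to 2.39 and 2.37 RPKM in Het and 2.09 and 2.67 RPKM in Nf1-KO, with Col2a1 at 0.02 RPKM or less, Col10a1 at 0.01 RPKM or less, and Matn1 and Matn3 listed at 0. Of the 9 genes listed for fibro-adipogenic cells, the fibroblasts that make Mmp2, Mmp14 and Lox, 4 were higher and 2 lower. The list summed to 113 and 109 RPKM in Het and 126 and 128 RPKM in Nf1-KO. The lower genes were Cd34 and Tcf4 (log2 fold changes -0.63 and -0.15), and whether Tcf4 marks these cells was not checked. All 8 endothelial markers were tested, 2 higher and 2 lower, and tendon markers summed to 16 and 15.9 against 13 and 12.4 RPKM. Of 8 Schwann cell markers 7 were tested and all 7 were higher, 3 of them having passed the filter through the Nf1-KO libraries alone, with the list summing to 16.2 and 16.6 RPKM in Het and 37.1 and 35.4 RPKM in Nf1-KO. Of 6 adipocyte markers 3 were tested and 2 were higher, with sums of 8.29 and 9.47 against 20 and 20.6 RPKM. Cfd made up most of that gap, with means of 6.33 RPKM in Het and 17.5 RPKM in Nf1-KO. Cidec and Retn also had higher means in Nf1-KO, while Adipoq, Plin1 and Lep (0.215 against 0.04 RPKM) had lower ones. Of 6 satellite cell markers 4 were tested and 2 were higher, of which Chrdl2 passed the filter through the Nf1-KO libraries alone. Of 8 smooth muscle and pericyte markers 7 were tested, 3 higher and 1 lower. All 8 myofibre genes passed, 6 lower and 2 higher. The part of these cell types in the levels of the 10 genes was not tested.

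**Figure D5:**
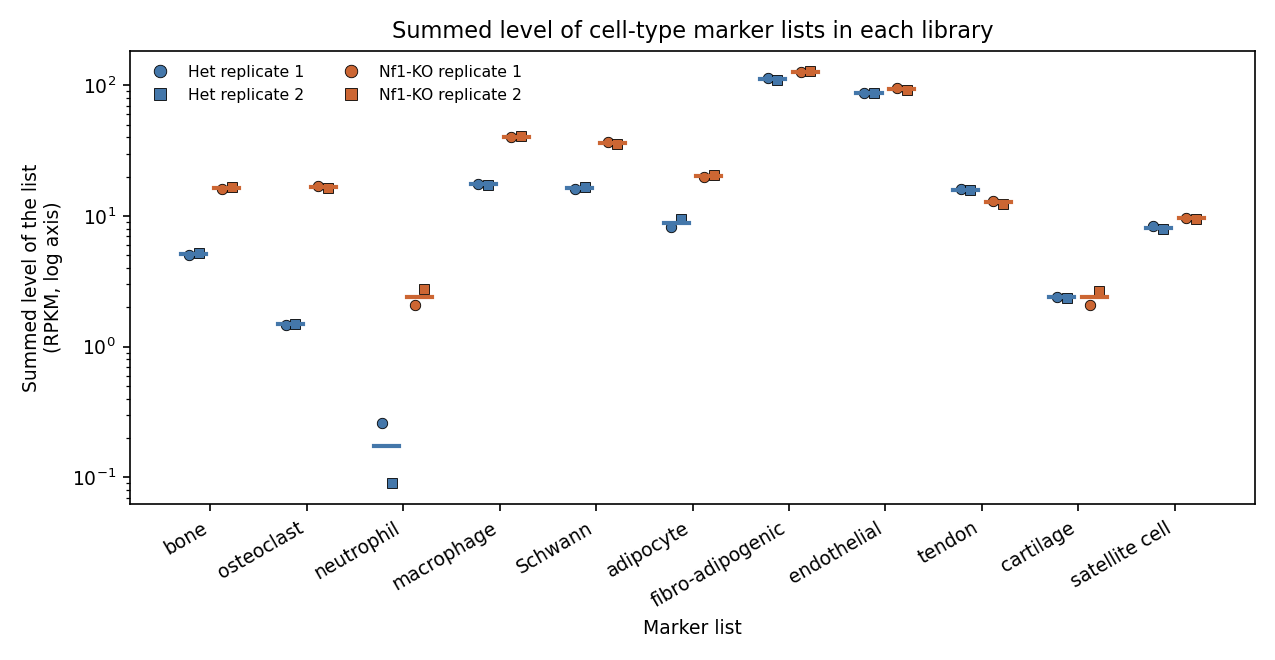
Summed level in RPKM, on a log axis, of 11 lists of cell-type markers in each of the 4 libraries; blue marks are Het, orange marks Nf1-KO, and short lines are group means (n = 2). The osteoclast list goes from 1.47 and 1.5 RPKM to 17.1 and 16.3 RPKM and the macrophage list from 17.7 and 17.2 RPKM to 40.3 and 40.7 RPKM, while the cartilage list stays between 2.09 and 2.67 RPKM.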

How the data were processed

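Per the submitters' processing notes, reads of total RNA libraries were handled with STAR 2.4.2a and DESeq2 and the genome build mm9; the annotation, the counting and its use of strand are not given in the sources used here. The authors deposited 1 value per gene and library, to 2 decimals; no header states a unit, and the values were taken as RPKM. They also deposited a comparison table of 13984 gene names. Per the file headers, this table holds a signal, the mean of the normalized counts, a log2 fold change with its standard error, a score (their ratio), and a p-value with its adjusted p-value.

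Rows with a number as name (33) were left out, and of rows marked as copies (1781) the one with the highest mean was kept. Genes with at least 0.5 RPKM in 2 libraries were tested on log2(RPKM + 1) in limma 3.58.1 (R 4.3.3), with trend = TRUE and no covariate, after scaling by trimmed means (30% of log ratios, 5% of abundances), with Benjamini-Hochberg adjustment over 10690 genes (threshold 0.05). An exact permutation test of 2 against 2 libraries cannot go below 0.333. Reads per RPKM came from the deposited mean count; intervals and ratios from them cover counting error only. The files give no library totals, so the depth of single libraries is known only through these estimates.

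Tables were made in Python 3.11.15. The members and gene lists were chosen with earlier results of these data known, and the promoters and motifs after their values were seen. Named were the 10 genes, up to 4 higher and 4 lower genes per list with the largest change among those passing, up to 2 abundant genes that did not pass, and any Mmp, Timp or Lox family gene, Reck or marker; 1 gene that the rule would name is not reported here. Likeness was the Euclidean distance of centred profiles (5 nearest genes). Promoter windows are from RefSeq (GRCm38.p6), exon overlaps from GENCODE M21 (GRCm38). No coordinate was carried between builds. Replicate numbers did not pair the libraries (correlation of same-numbered deviations -0.0179), and replicates differed by more than counting noise. The 14 alternatives are covered in the closing section.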

Additional observations from a re-analysis of the deposited data

How the results depend on the processing

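The differences of the 10 genes kept their direction in each of the 14 alternatives that gave a value. Size depended most on the pseudocount for low genes, as given for Mmp9, Mmp13, Timp1 and Lox. Timp3 was called in 1 setting, the values as deposited and not scaled. Those values gave 1883 lower genes in place of 2857, and 66.6% of called genes were then higher against 47.2%, with a median log2 fold change of 0.07. The filter of 1 RPKM in every library removed Mmp9, Mmp13, Timp1 and Lox, leaving 3 genes of the set called higher in place of 7. It also left 0 higher genes among the other Mmp genes, 0 higher and 1 lower among the other Adamts genes, 0 lower among the Adamts-like genes and 3 higher among the genes of pericellular protease control. With no filter, and so with more genes tested, the counts were 4 higher and 2 lower for the other Mmp genes, 1 higher for Adamts, 0 lower for Adamts-like, 2 higher for Adam, 1 higher for collagen cross-linking and 4 higher for protease control. Leaving out the 20 most abundant genes gave 1 higher Adamts gene, as did limma without trend, and unscaled values gave 0 lower Adamts-like genes; the cause was not tested.

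With each library left out in turn, the lone library of a group being assumed to vary like the others, all genes called ran from 3441 (without Het replicate 1; 3534 without Het replicate 2) to 4361, in place of 5406. Lower genes ran from 1727 (1811 without Het replicate 2) to 2399. Genes of the set called higher ran from 4 to 7, since without either Nf1-KO replicate Mmp9, Mmp13 and Timp1 missed the filter. Higher other Mmp genes ran from 0 (without either Nf1-KO replicate; 1 without Het replicate 2) to 2. Higher Adamts genes ran from 0 (without either Het replicate or Nf1-KO replicate 2) to 1 and lower ones from 1 (without either Het replicate) to 2. Adamts-like genes ran from 1 (without either Het replicate or Nf1-KO replicate 2) to 2 higher and from 0 (without either Het replicate or Nf1-KO replicate 1) to 1 lower. Collagen cross-linking ran from 1 (without either Het replicate or Nf1-KO replicate 2) to 2 higher, protease control gave 3 higher in each case, and transcriptional inputs ran from 3 (without Het replicate 2; 4 without Het replicate 1 or Nf1-KO replicate 1) to 6 higher. With the replicate block 5439 genes were called, and the genes of the set kept their calls, 7 higher and 2 lower; of the called related genes, Lrp1 alone lost its call. The ratio of summed Mmp to summed Timp was 0.256 to 0.267 in Het and 0.607 to 0.613 in Nf1-KO; with all 23 Mmp genes summed, an alternative chosen after seeing the data, it was 0.551 and 0.822, since more genes enter the sum.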
